A study of Mus musculus with 6 samples.

Results

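The 10 genes followed here mark the path from the spermatogonial stem cell to the start of meiosis, and were measured in 6 single-cell libraries of mouse testis: Gfra1, Ret, Zbtb16, Etv5, Sall4, Lin28a, Nanos3, Sohlh1, Kit and Stra8. They were taken by gene symbol from the 30905 genes of the count tables, and each of the 10 symbols belonged to a single gene identifier. The question was in what order the genes appear along the germ line, which somatic cells also hold their transcripts, and whether their levels differ between smoking and control mice.

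The smoking group was 3 libraries from ICR males kept in a chamber with cigarette smoke for 30 minutes a day over 12 weeks, with 15 cigarettes per session (1.1 mg nicotine and 11 mg tar per cigarette, 3.47 mg of smoke per m3). The control group was 3 libraries from ICR males placed in such a chamber without smoke. The labels give an age of 8 weeks, whereas the protocol has animals bought at 6 weeks, 1 week of adaptation and then the 12 weeks of exposure. No genetic change or drug was used in either group, the left testis was dissociated, and dead cells were removed by a magnetic column. Each group had 7 mice; the labels do not tie libraries to single animals, so a p-value here speaks of the variation from library to library, part of which may be technical.

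The libraries held 54253 cell barcodes and 335133113 UMIs (unique molecular identifiers, each standing for 1 captured transcript), with 55751481 to 78455606 UMIs per smoking library and 39607204 to 54915594 UMIs per control library. After removal of barcodes over 20% mitochondrial UMIs and of doublet calls, 47922 barcodes were left. Pairs of libraries shared between 16 and 34 barcode sequences, and 0 of these had the same UMI total in both. Clusters were named "-like" from marker lists that hold none of the 10 genes, and the 10 genes were kept out of the genes used for clustering. Levels are CPM, UMIs of the gene per 1000000 UMIs summed over the barcodes of a class in a library.

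In the adult testis, glial cell line-derived neurotrophic factor from the niche reaches stem cells through the GFRA1 co-receptor and the RET tyrosine kinase, and ETV5 is a transcription factor induced by that signal. ZBTB16 (PLZF), SALL4, LIN28A and NANOS3 are regulators of undifferentiated spermatogonia. Retinoic acid then drives the transition to differentiating spermatogonia, which is marked by the receptor KIT and prepared by the factor SOHLH1, and a later exposure to retinoic acid brings in STRA8 for meiotic entry.

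RefSeq promoter windows of GRCm38.p6 (250 bases before to 50 after the start) were found for 7 of the 10 genes, and 2 letter patterns were searched on both strands. AGGTCA is the core of sites read by retinoic acid receptors, and CACGTG is an E-box of the kind read by bHLH factors such as SOHLH1. Sohlh1 and Stra8 are shown because they are the factor that prepares differentiation and the retinoic acid response gene, and because no other window of the 7 genes held either pattern. Capitals mark CACGTG in Sohlh1 (chr2:25847199-25847498, minus strand) and AGGTCA in Stra8 (chr6:34920698-34920997, plus strand).
Sohlh1: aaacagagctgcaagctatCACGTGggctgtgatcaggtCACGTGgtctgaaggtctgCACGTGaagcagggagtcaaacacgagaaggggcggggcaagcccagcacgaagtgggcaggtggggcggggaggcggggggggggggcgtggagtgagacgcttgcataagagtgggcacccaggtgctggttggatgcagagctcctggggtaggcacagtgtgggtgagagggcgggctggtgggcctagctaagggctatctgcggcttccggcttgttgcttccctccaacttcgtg
Stra8: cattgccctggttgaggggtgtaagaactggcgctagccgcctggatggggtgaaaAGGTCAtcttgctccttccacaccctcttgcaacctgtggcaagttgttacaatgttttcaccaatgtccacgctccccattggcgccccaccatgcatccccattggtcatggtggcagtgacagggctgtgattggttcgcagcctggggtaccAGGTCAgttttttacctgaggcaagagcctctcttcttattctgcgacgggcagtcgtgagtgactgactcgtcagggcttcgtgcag
The 3 CACGTG of Sohlh1 lie 231, 211 and 192 bases before the start, and the window also holds 1 AGGTCA at 215 bases, in part within the second CACGTG. The 2 AGGTCA of Stra8 lie 194 and 38 bases before the start. Of 32851 promoter windows, 16.3% held AGGTCA at least once and 1.81% at least 2 times, while 7.15% held CACGTG and 0.0883% held it at least 3 times. The looser pattern CANNTG, which includes every CACGTG, was in 72.3% of windows. A match describes the letters of the window and shows no binding.

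The spermatogonial cluster held 1030 retained barcodes, and 442 of them were left unnamed and outside the classes below. They had raised spermatid markers (311 barcodes) or Sertoli markers (131 barcodes), and held 256 Stra8 UMIs, 12.2% of all its UMIs. Spermatogonia-like cells were 316 barcodes, 45, 57 and 46 in the smoking libraries and 58, 57 and 53 in the controls. Among them, 43 barcodes formed the undifferentiated-spermatogonia-like cells, with 9 of 20 list markers raised (Id4, Upp1, Egr4, Tcl1, Pramef12, Glis3, Etv4, Neurog3 and Cdh1). The list markers Tspan33, Lhx1, Bcl6b, Eomes, Pax7, Nanos2, Shisa6, T, Gfra2, Pou3f1 and Ccnd1 did not count as raised, and Shisa6 had 0 UMIs. The other 273, called remaining spermatogonia-like cells, fell into 4 sub-clusters that are referred to by a leading gene: Loxl2-led (117 barcodes), Hist1h1e-led (70), Hmmr-led (41) and Tslrn1-led (45). The Loxl2-led and Hist1h1e-led sub-clusters had 2 and 1 of the markers of differentiating spermatogonia raised over the rest, too few for a name. The early-spermatocyte-like cells followed as Rbpms2-led (80), Ccnb3-led (101) and Gml-led (91) clusters. These 8 sub-stages were ordered by the summed CPM of the early spermatocyte markers over that of the undifferentiated markers, a ratio of 1.95 in the undifferentiated-like cells and 63.6 in the Gml-led cells.

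Across these sub-stages the genes fell into successive groups. Gfra1, Ret and Nanos3 were nearly confined to the undifferentiated-like cells. Zbtb16, Sall4 and Lin28a were highest there and extended to different lengths into the remaining spermatogonia-like cells, and Sohlh1 declined more slowly. Kit was highest in the sub-stages after the undifferentiated-like cells. Stra8 was high in separate sub-stages, with low levels in the Hist1h1e-led and Hmmr-led cells placed between them. It was already present, unevenly between libraries, in the undifferentiated-like cells, above the Hist1h1e-led level in 6 of 6 libraries. Levels between sub-stages are a description, because classes and levels come from the same barcodes, and no test was made.

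**Figure D1:**
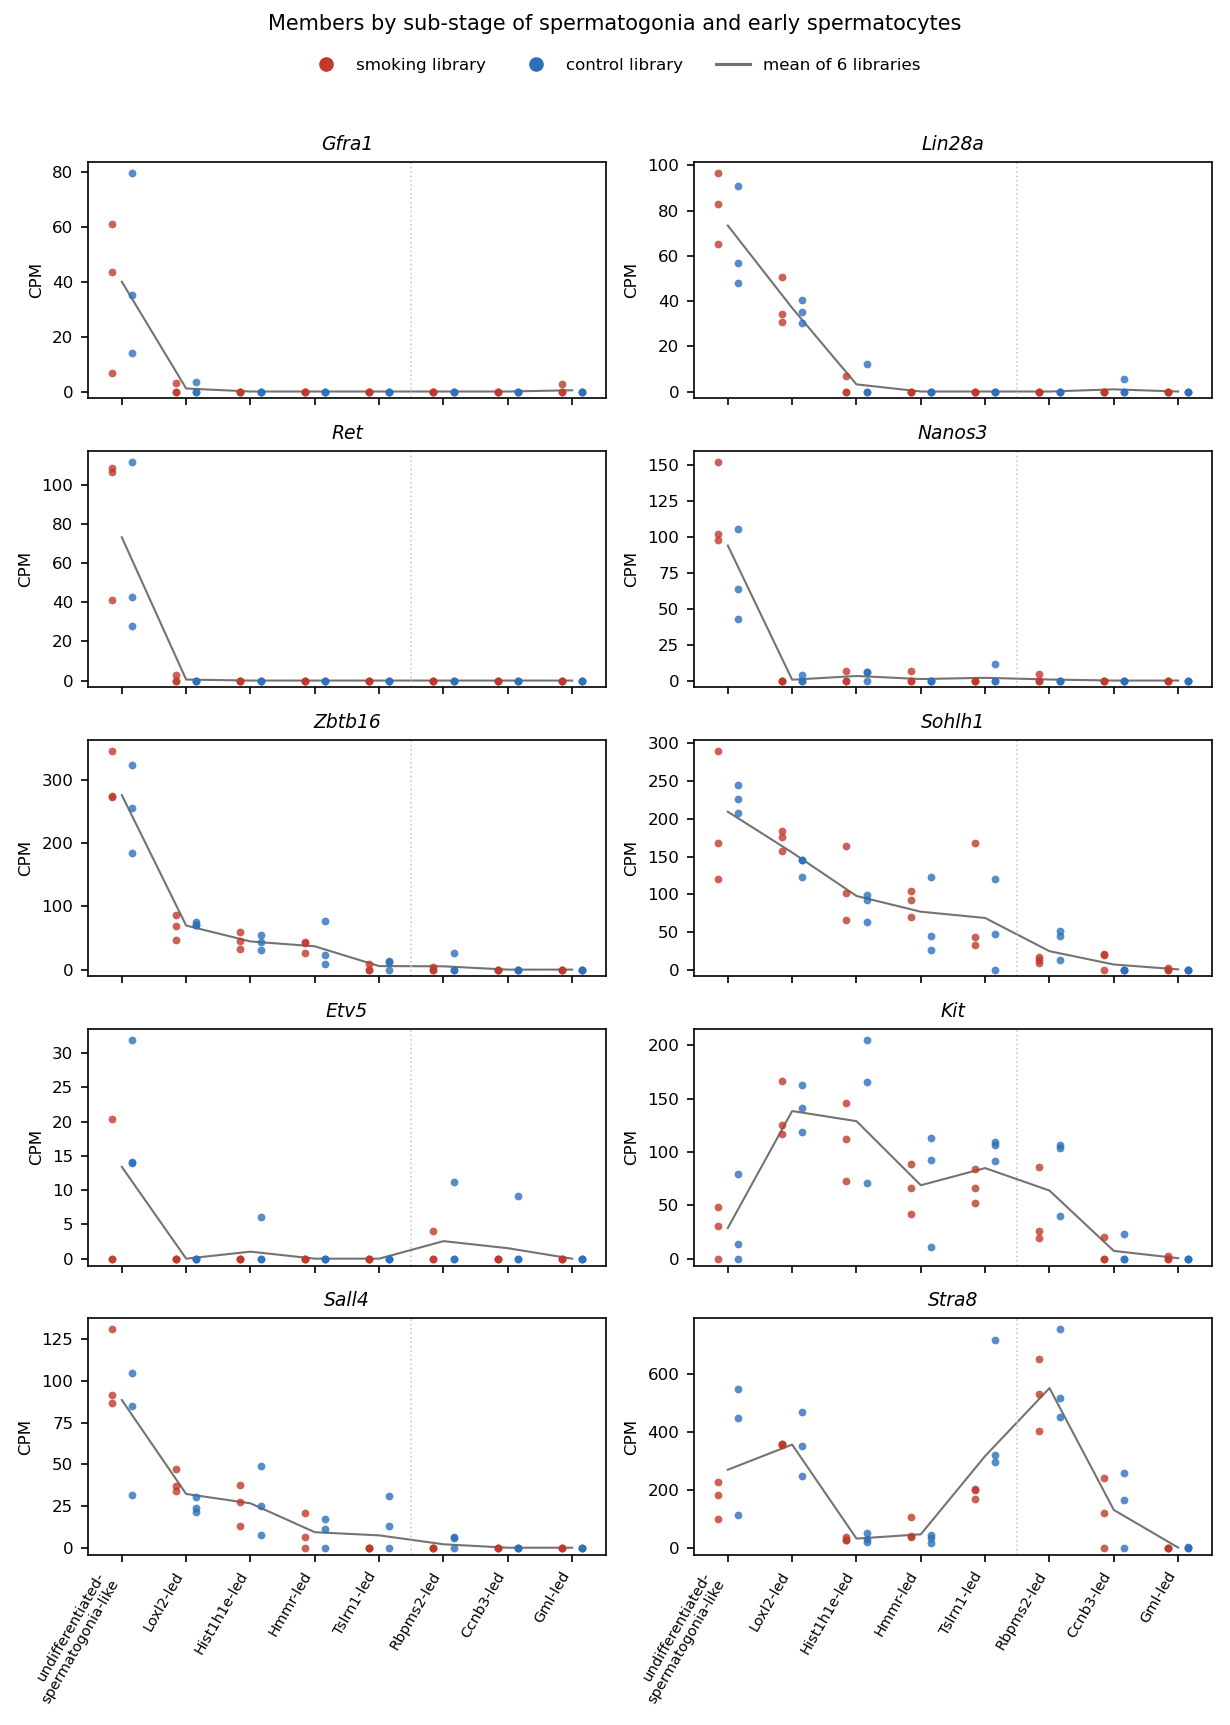
Level of each gene (CPM, vertical axis) in the 8 sub-stages from undifferentiated-spermatogonia-like to Gml-led cells, with smoking libraries as red points left of control libraries as blue points and the mean of 6 libraries as a line. Gfra1, Ret and Nanos3 are near 0 after the undifferentiated-like cells, and Kit is low in the undifferentiated-like cells. Stra8 is high in Loxl2-led, Tslrn1-led and Rbpms2-led cells and low in the Hist1h1e-led and Hmmr-led cells between them. In the undifferentiated-like cells Stra8 is present and differs widely between libraries.

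Gfra1 (chromosome 19, 58235604 to 58455909, minus strand, GRCm38, overlapping the antisense gene Gm16277) encodes the co-receptor for the niche factor. In undifferentiated-like cells it had 43.5, 61.0 and 6.90 CPM in the smoking libraries, against 35.0, 14.2 and 79.7 CPM in the controls, a mean of 40.1 ± 27.6 (SD, n = 6). The groups overlapped, and smoking 3 was the lowest library. In the Loxl2-led cells its mean was 1.10 ± 1.71 CPM, and in the next 5 sub-stages it had 0 UMIs.

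Ret (chromosome 6, 118151745 to 118197718, minus strand) encodes the kinase that GFRA1 engages. It had 109, 107 and 41.4 CPM in the undifferentiated-like cells of the smoking libraries and 28.0, 42.5 and 112 CPM in those of the controls. The highest libraries came from both groups. Outside these cells the spermatogonia-like barcodes held 1 Ret UMI, and the early-spermatocyte-like cells held 0, which allows up to 0.799 CPM at 3 counts over the class.

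Nanos3 (chromosome 8, 84173731 to 84185217, minus strand, the locus of Mir181c and Mir181d on the same strand) encodes an RNA-binding protein of undifferentiated spermatogonia. Its undifferentiated-like level was 98.0, 102 and 152 CPM in the smoking libraries and 105, 42.5 and 63.8 CPM in the controls. Of its 79 UMIs in spermatogonia-like cells, 73 were in the 43 undifferentiated-like barcodes. Etv5 (chromosome 16, 22381309 to 22439719, minus strand) had only 9 UMIs in these barcodes, with 0 UMIs in smoking 1 and smoking 3, so its place along the germ line rests on few counts.

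Zbtb16 (chromosome 9, 48654297 to 48836222, minus strand), the PLZF transcriptional repressor, was at 276 ± 56.2 CPM in the undifferentiated-like cells (SD, n = 6). It was lower at each later step: 69.6 ± 12.6 CPM in Loxl2-led, 44.5 ± 11.3 in Hist1h1e-led, 36.8 ± 23.6 in Hmmr-led and 5.58 ± 6.28 in Tslrn1-led cells. All 6 libraries had their highest level in the undifferentiated-like cells. The Hist1h1e-led and Hmmr-led levels do not differ beyond their spread.

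Sall4 (chromosome 2, 168748332 to 168767943, minus strand, antisense gene Gm14261), a zinc finger factor of the stem and progenitor pool, had 88.6 ± 32.6 CPM in the undifferentiated-like and 32.2 ± 9.48 CPM in the Loxl2-led cells. It was at 26.6 ± 15.2 CPM in Hist1h1e-led cells, which does not differ from Loxl2-led beyond the spread, and at 9.31 ± 8.79 CPM in Hmmr-led cells. Lin28a (chromosome 4, 134003330 to 134018841, minus strand, antisense gene Gm13061), an RNA-binding protein that blocks let-7 maturation, ended earlier. It had 73.4 ± 19.7 CPM in undifferentiated-like, 37.0 ± 7.65 CPM in Loxl2-led and 3.15 ± 5.20 CPM in Hist1h1e-led cells, with 0 UMIs in the Hmmr-led and Tslrn1-led cells.

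Sohlh1 (chromosome 2, 25842995 to 25847248, minus strand) encodes a germ cell bHLH factor needed for differentiation. Its mean was 209 ± 59.7 CPM in undifferentiated-like and 155 ± 22.2 CPM in Loxl2-led cells, and only 4 of 6 libraries had the undifferentiated-like level above the Loxl2-led level. It was then 97.7 ± 36.2 CPM in Hist1h1e-led, 76.8 ± 36.9 in Hmmr-led and 68.5 ± 62.4 in Tslrn1-led cells, which do not differ beyond their spread. In the Rbpms2-led early spermatocyte-like cells it was 24.4 ± 18.2 CPM.

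Kit (chromosome 5, 75574916 to 75656722, plus strand), the receptor of stem cell factor, ran the other way. Its undifferentiated-like level was 28.8 ± 31.2 CPM and its Loxl2-led level 138 ± 22.0 CPM, with the Loxl2-led level above the undifferentiated-like level in 6 of 6 libraries. The Loxl2-led and Hist1h1e-led levels (129 ± 53.2 CPM) lie within their spread, and Hmmr-led, Tslrn1-led and Rbpms2-led cells had 68.8 ± 37.2, 84.9 ± 22.3 and 63.8 ± 39.8 CPM. In Ccnb3-led cells Kit was 7.25 ± 11.2 CPM, with 0 UMIs in 4 of the 6 libraries.

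Stra8 (chromosome 6, 34920163 to 34939344, plus strand), the retinoic acid-induced factor of meiotic entry, was high in separate sub-stages. In Loxl2-led cells it had 354, 356 and 358 CPM in the smoking libraries and 247, 352 and 469 CPM in the controls. In the next sub-stage, Hist1h1e-led, it had 26.6, 26.8 and 36.3 CPM in the smoking libraries and 31.6, 49.2 and 18.6 CPM in the controls. Every library was lower in Hist1h1e-led than in Loxl2-led cells, and the groups overlapped in both. The leading genes of the Hist1h1e-led cells included the histone genes Hist1h1c and Hist1h1a. Those of the Hmmr-led cells included the cell cycle genes Cdk1 and Plk1. The order of the sub-stages was chosen after seeing the data. Whether low Stra8 in these sub-stages goes with time or with the cell cycle was not tested.

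Stra8 stayed at 46.3 ± 30.7 CPM in Hmmr-led cells and was at 317 ± 205 CPM in Tslrn1-led cells, with 167, 202 and 199 CPM in the smoking libraries (17 barcodes) and 320, 296 and 716 CPM in the controls (28 barcodes). These levels rest on 5, 7 and 5 smoking and 10, 12 and 6 control barcodes. They were not tested because each library holds under 20 barcodes, and the overlap of the groups over all genes was not computed there. Its highest mean was in Rbpms2-led cells, with 530.5, 651 and 401 CPM in the smoking libraries and 754, 453 and 516 CPM in the controls. The Rbpms2-led level was above the Loxl2-led level in 6 of 6 libraries, and control 3 was the exception in having its highest Stra8 in Tslrn1-led cells (716 CPM). In Gml-led cells, the last sub-stage, 1 Stra8 UMI was left among 91 barcodes.

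The undifferentiated-like Stra8 level, 269 ± 185 CPM, was uneven between libraries and between barcodes. It was 98.0, 183 and 228 CPM in the smoking libraries and 547, 113 and 447 CPM in the controls, so that control 1 and control 3 were high and control 2 was within the range of the smoking libraries. Only 16 of the 43 barcodes had a Stra8 UMI, and 12 barcodes with 5 or more UMIs held 94.8% of the 192 UMIs. Loxl2-led cells showed the same unevenness, with UMIs in 64 of 117 barcodes and 91.4% of UMIs in the 37 barcodes with at least 5. In Hist1h1e-led and Hmmr-led cells 18 of 70 and 15 of 41 barcodes had a UMI, and 0 barcodes had 5 or more.

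**Figure D2:**
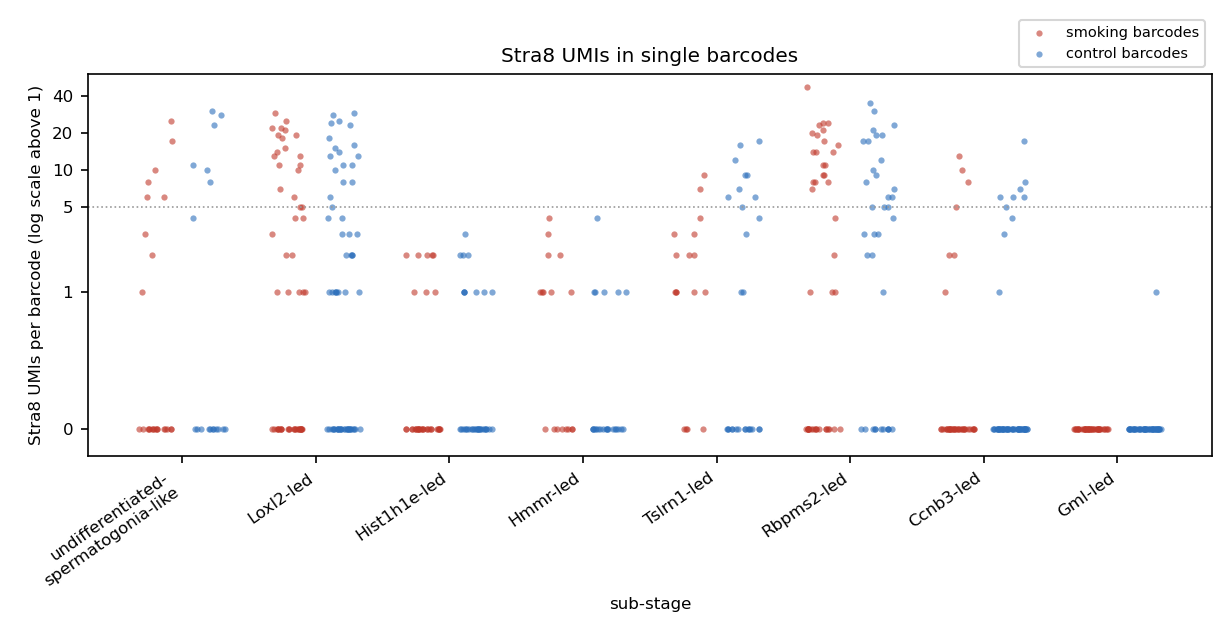
Stra8 UMIs in single barcodes (vertical axis, log scale above 1) by sub-stage, with smoking barcodes in red left of control barcodes in blue and a dotted line at 5 UMIs. Barcodes above the line occur in undifferentiated-like, Loxl2-led, Tslrn1-led, Rbpms2-led and Ccnb3-led cells of both groups, with up to 47 UMIs in Rbpms2-led cells, and none occur in Hist1h1e-led, Hmmr-led or Gml-led cells.

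When the spermatogonia-like cells were split by Stra8 itself, 139 barcodes had a Stra8 UMI and 177 had none, with median depths of 14339 and 10331 UMIs. Barcodes with and without Stra8 had 167 ± 41.4 and 103 ± 43.2 CPM of Sohlh1, 46.8 ± 21.8 and 26.7 ± 7.42 CPM of Sall4, 116 ± 25.3 and 98.4 ± 29.3 CPM of Kit, and 84.7 ± 34.2 and 94.1 ± 24.4 CPM of Zbtb16 (SD, n = 6 libraries). They had 10.7 ± 4.57 and 25.5 ± 16.5 CPM of Nanos3, and 8.52 ± 8.89 and 14.4 ± 8.0 CPM of Ret. No test was made of these values.

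Within single undifferentiated-like barcodes, at a median depth of 15881 UMIs, the genes of undifferentiated spermatogonia were detected together with Sohlh1 and mostly without Kit. Zbtb16 was found in 42 of 43 barcodes, Sohlh1 in 38, Lin28a in 29, Sall4 in 28, Nanos3 in 27, Ret in 21 and Gfra1 in 15. At least 1 of Gfra1, Ret and Nanos3 was found in 38 of the 43. For comparison at similar depth (median 16774 UMIs), elongating-spermatid-like barcodes had a UMI of Zbtb16 in 0.804%, Sohlh1 in 0.850%, Lin28a in 0.574%, Nanos3 in 3.52%, Gfra1 in 1.91% and Ret in 0.0230% of 4352 barcodes. These shares do not tell free RNA from transcripts of the spermatids themselves.

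Kit was found in 5 of the 43 undifferentiated-like barcodes, 0 of which had Gfra1 and 4 of which had Stra8. From the shares of each gene within a library, 1.68 barcodes with both Kit and Gfra1 were expected. Sohlh1 was found with Gfra1 in 13, Ret in 18 and Zbtb16 in 38 barcodes, where 12.9, 18.6 and 37.2 were expected. In Loxl2-led cells 90 of 117 barcodes had Kit and 66 had Zbtb16, with 56 holding both. By contrast, 4 of these 117 barcodes had Gfra1, Ret or Nanos3. The undifferentiated-like barcodes held a median of 5 of the 10 genes and Loxl2-led barcodes 3, and in Gml-led cells 87 of 91 barcodes held none.

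Other genes of the pathways are described over the same classes. Among the stem cell and progenitor regulators, Upp1 had 86.1 CPM in undifferentiated-like and 1.07 CPM in the remaining spermatogonia-like cells, Egr4 220 and 14.4 CPM, and Foxo1 167 and 62.9 CPM, while Nanos2, the marker of the most primitive cells, was at 4.35 CPM and 0. Upp1 and Egr4 were themselves markers used for the name. Of the differentiation regulators, Crabp1, a retinoic acid-binding protein, was at 139 CPM in undifferentiated-like and 565 CPM in Loxl2-led cells, and Ccnd2, a D-type cyclin, at 242 and 25.9 CPM. Of the meiotic entry genes, Meioc had 14.2 CPM in undifferentiated-like and 486 CPM in Rbpms2-led cells. Prdm9, which sets recombination sites, had 2.66 and 134 CPM. Both were highest in the sub-stage where Stra8 was highest, but both are early spermatocyte markers used to name and order these sub-stages. Crabp1 is likewise on the list of differentiating spermatogonia markers and counted as raised in the Loxl2-led cells.

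The genes most like each of the 10 were sought over 17 classes and sub-stages by Pearson correlation of log2(CPM + 1), among genes with at least 10 CPM in at least 1 of them. These correlations describe shared patterns over classes built from the same libraries. For Gfra1 the nearest were Nr5a2 (r = 0.94), Myrip (0.92) and Tm4sf5 (0.90), and for Ret they were Six4 (0.97), Nr5a2 (0.94) and Dkk3 (0.93). For Zbtb16 they were B4galt4 (0.92), Arhgap10 (0.91) and Bahcc1 (0.88), and for Etv5 Cdkn1b (0.94), Cd302 (0.94) and Phactr2 (0.93).

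Sall4 was followed by Fam171b (0.97), Gng13 (0.97) and Ascl2 (0.97), Lin28a by Gm2381 (0.97), Cartpt (0.96) and Zmat4 (0.96), and Nanos3 by 4933415A04Rik (0.92), Krt17 (0.92) and Tunar (0.91). Sohlh1 was most like Sox3 (0.98), a factor of committed progenitors, with Jph1 (0.98) and Esrp1 (0.98). Kit was most like Snhg11 (0.92), Frmd5 (0.89) and Angptl6 (0.88). Stra8 was most like Rhox7b (0.97), Mei4 (0.97), a gene of meiotic break formation, and Xlr3c (0.96). With log2(CPM + 10), 10 of these 30 genes were named again.

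Outside the germ line, 3 of the 10 genes had clear somatic levels. Kit was highest of all classes in Leydig-like cells, the testosterone-producing interstitial cells, at 172 ± 48.4 CPM (SD, n = 6), and these 403 barcodes held 29.2% of its UMIs. Zbtb16 was at 30.5 ± 16.2 CPM in Leydig-like cells. Etv5 was mostly somatic, with 51.5% of its UMIs in Sertoli-like cells (16.6 ± 2.97 CPM), the nurse cells of the tubule, and with 26.8 ± 12.8 CPM in mesenchymal-like, 19.5 ± 4.97 CPM in macrophage-like and 11.7 ± 3.50 CPM in Leydig-like cells.

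Kit had a UMI in 150 of the 403 Leydig-like barcodes (37.2%, at a median of 3009 UMIs) against 0.335% of Sertoli-like barcodes at a median of 2448 UMIs. The Leydig-like class had a cluster of 146 barcodes with a median of 16626 UMIs and a cluster of 257 with a median of 2394, and Kit was at 215 and 32.1 CPM in them. Etv5 had a UMI in 3.89% of Sertoli-like and 0.207% of the deeper elongating-spermatid-like barcodes.

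Smaller somatic values rested on few counts. Zbtb16 had 23.0 ± 26.1 CPM in the peritubular-myoid-like cells (9 UMIs), 15.1 ± 22.2 CPM in mesenchymal-like cells (14 UMIs) and 13 ± 8.4 CPM in endothelial-like cells (17 UMIs), and Ret had 6.70 ± 4.11 CPM in endothelial-like cells (10 UMIs). Sall4 and Lin28a had 0 UMIs in Leydig-like, macrophage-like, mesenchymal-like and endothelial-like cells, which allows up to 0.880, 1.8, 2.67 and 2.40 CPM. Stra8 had 55 UMIs in Sertoli-like cells, at 26.5 CPM in a cluster of 65 barcodes led by Gm14226 and at 0.348 and 1.56 CPM in the other 2 Sertoli-like clusters.

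Later germ cells held low levels of some of the genes. Kit was at 7.69 ± 1.71 CPM in round-spermatid-like cells, where 6.02% of 6728 barcodes had a UMI. Haploid germ cells of the mouse are known to make a shortened Kit transcript, and UMI counts per gene do not tell it from the full one. Sohlh1 was at 27.7 CPM in an unnamed cluster of 2112 barcodes led by Ung and at 15.8 CPM in a round-spermatid-like cluster led by Cd46. Gfra1 had 2.35 ± 0.771 CPM in round-spermatid-like cells, which held 39.2% of all its UMIs. Of all Nanos3 UMIs, 22.5% lay in round-spermatid-like and 25.8% in elongating-spermatid-like cells, against 12.1% in undifferentiated-like cells. For Lin28a the shares were 12.3%, 12.3% and 27.9%.

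**Figure D3:**
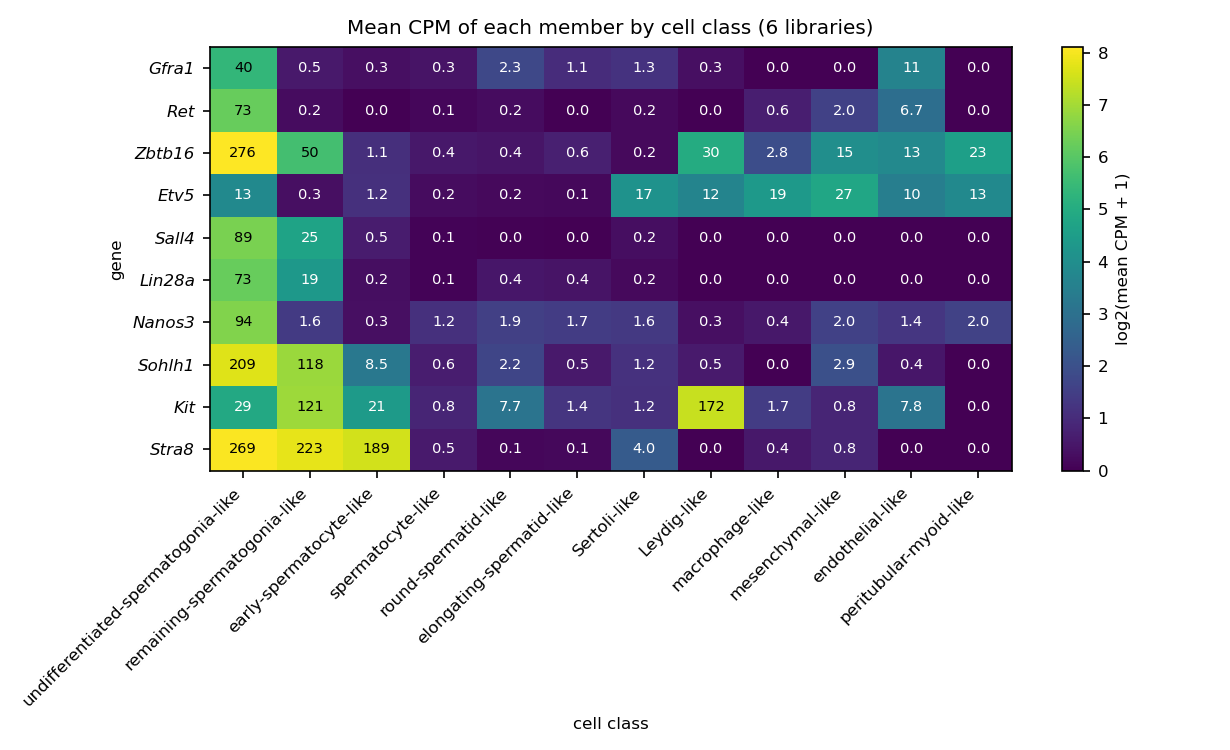
Mean CPM over 6 libraries of each gene (rows) in 12 cell classes (columns), with the colour on a log2(mean CPM + 1) scale and the mean CPM printed in each cell. Most genes are highest in undifferentiated-spermatogonia-like cells, Kit is highest in Leydig-like cells, and Etv5 has its higher values in somatic classes.

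The niche genes that act on these receptors were seen in other classes. Gdnf, the ligand of GFRA1 and RET, was near the detection limit, with its highest mean in Sertoli-like cells at 1.57 ± 0.596 CPM. Kitl, the ligand of KIT, was at 23.3 CPM in Sertoli-like cells and at 110, 110 and 104 CPM in mesenchymal-like, endothelial-like and peritubular-myoid-like cells. Among the genes of retinoic acid supply, Aldh1a1 was at 2227 CPM in Leydig-like cells and the retinoic acid-degrading Cyp26b1 at 681 CPM in mesenchymal-like cells.

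With smoking, none of the 10 genes passed the test in any class where it was tested. Undifferentiated-like, endothelial-like and peritubular-myoid-like cells were not tested, because a library held under 20 barcodes. None of the 10 passed the low-count filter in spermatocyte-like, macrophage-like or mesenchymal-like cells. The test was edgeR's quasi-likelihood fit to UMIs summed per library over all genes, with Benjamini-Hochberg adjustment and a threshold of 0.05. In spermatogonia-like cells 7 of the 10 genes passed the low-count filter and 0 were called, with 0.0835% of all 8381 tested genes called. At an unadjusted p under 0.05 there were 2 of the 7 (6.03% of all tested genes), and DESeq2 also called 0. The smallest adjusted p of the 7 was 0.716, their median log2 fold was 0.35, and the median over all tested genes was 0.01.

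The unadjusted 2 were Nanos3 and Stra8. Nanos3 had 16.6, 21.4 and 35.0 CPM in spermatogonia-like cells of the smoking libraries and 21.3, 7.09 and 8.73 CPM in the controls. Control 1 lay among the smoking libraries, so the groups overlapped (log2 fold 0.98 ± 0.39 SE, edgeR adjusted p = 0.716). Stra8 had 186, 190 and 240 CPM in the smoking libraries and 255, 211 and 313 CPM in the controls. The groups overlapped, with smoking 3 above control 2 (log2 fold -0.31 ± 0.13 SE, edgeR adjusted p = 0.772).

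The other 5 did not pass either. Sall4 was at 42.5 ± 14.8 CPM in smoking and 30.4 ± 6.21 CPM in control libraries (SD, n = 3 each; log2 fold 0.50 ± 0.26 SE). Lin28a (log2 fold 0.38 ± 0.28 SE), Zbtb16 (0.35 ± 0.19) and Sohlh1 (0.31 ± 0.16) had positive and Kit (-0.23 ± 0.17) a negative fold. The groups overlapped for all 7 tested genes, while they did not for 11.4% of all tested genes. Gfra1, Ret and Etv5 did not pass the filter: Gfra1 averaged 7.16 ± 5.85 CPM in smoking and 5.75 ± 3.84 CPM in control libraries, Ret 16.2 ± 6.45 and 6.70 ± 3.1 CPM, and Etv5 1.36 ± 2.35 and 2.86 ± 0.0430 CPM.

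The shares of the sub-stages are given beside these folds. Undifferentiated-like barcodes were 11.1%, 19.3% and 19.6% of the spermatogonia-like barcodes in the smoking libraries and 13.8%, 10.5% and 7.55% in the controls, which overlap (16.7 ± 4.81 against 10.6 ± 3.12%, exact two-sided permutation p = 0.2, adjusted 0.5 over 5 sub-stages). A design of 3 against 3 libraries cannot give an exact p under 0.1. These shares rest on 5, 11 and 9 smoking and 8, 6 and 4 control barcodes, and their part in the folds of the undifferentiated genes was not tested. The summed CPM of 11 pachytene spermatocyte markers in spermatogonia-like cells was 1403 to 1460 in smoking and 1532 to 1699 in control libraries, and that of 10 round spermatid markers 315 to 393 and 406 to 502. T and NK cell markers (3 of 5 genes with a UMI, Nkg7 and Cd3g at 0) summed to 15.0 to 19.1 in smoking and 10.2 to 12.8 CPM in control libraries. The groups do not overlap for these 3 sums (exact permutation p = 0.1 each), and their part in the folds was not tested. They were picked out from the sums of all the cell type marker lists, and the sums of the other lists overlapped. None of the p-values of marker sums, here or below, is adjusted for the number of lists. In undifferentiated-like cells alone, 7 Leydig markers summed to 6.90 to 885 CPM in smoking and 0 to 15.9 CPM in control libraries (exact permutation p = 0.4). Macrophage markers (2 of 8 genes with a UMI) summed there to 10.2 to 21.8 CPM in smoking and 0 in control libraries (exact permutation p = 0.1). The part of both sums in the levels of the 10 genes was not tested. Sums of all the marker lists other than the macrophage list overlapped there.

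In the remaining spermatogonia-like cells 6 of the 10 genes were tested and 0 called, with 0.0886% of 7898 tested genes called, and DESeq2 called 0 of the 6 as well. Sohlh1, the 1 gene at an unadjusted p under 0.05 (5.28% of all tested genes), had 122, 121 and 157 CPM in the smoking libraries and 121, 97.6 and 91.3 CPM in the controls. The groups did not overlap, with smoking higher, by a margin of 121.07 against 120.94 CPM, as was so in that direction for 4.63% of all tested genes (log2 fold 0.37 ± 0.16 SE, edgeR adjusted p = 0.889). Stra8 was at 212 ± 27.6 CPM in smoking and 234 ± 60.0 CPM in control libraries and Kit at 113 ± 21.1 and 128 ± 23.2 CPM. Zbtb16 was at 49.5 ± 9.07 and 50.8 ± 9.43 CPM, a log2 fold of 0.02 ± 0.23 SE, against 0.35 ± 0.19 SE over all spermatogonia-like cells. The summed CPM of the undifferentiated spermatogonia markers (15 of 20 genes with a UMI, with Eomes, Tcl1, Nanos2, Shisa6 and T at 0) in these cells was 568 to 644 in smoking and 529 to 540 in control libraries. That of the 11 pachytene markers was 1396 to 1527 and 1540 to 1876. Neither pair of ranges overlaps (exact permutation p = 0.1 each), while the sums of the other marker lists overlapped, and their part in the folds was not tested. Within the Loxl2-led cells, where no test was made, Sohlh1 had 158, 184 and 175 CPM in the smoking libraries and 145, 146 and 123 CPM in the controls.

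In early-spermatocyte-like cells, where 2 genes were tested and 0 called (0.0671% of 7448 tested genes called, 0 of the 2 and 6.71% of all at an unadjusted p under 0.05, and 0 of the 2 with DESeq2), Stra8 averaged 183 ± 38.3 CPM in smoking and 195 ± 39.9 CPM in control libraries. Kit averaged 14.6 ± 10.4 and 26.6 ± 12 CPM (log2 fold -0.58 ± 0.40 SE, edgeR adjusted p = 0.835). For Kit, smoking 1 and smoking 3 had 6.71 and 10.7 CPM and control 3 had 13.3 CPM, while smoking 2 at 26.4 CPM lay among the controls. In these cells the 11 pachytene markers summed to 2429 to 2505 CPM in smoking and 2742 to 2979 CPM in control libraries. The peritubular myoid markers (4 of 6 genes with a UMI, Myh11 and Des at 0) summed to 47.2 to 57.1 and 57.2 to 64.7 CPM. Neither pair of ranges overlaps (exact permutation p = 0.1 each), while the sums of the other marker lists overlapped, and their part in the folds was not tested.

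**Figure D4:**
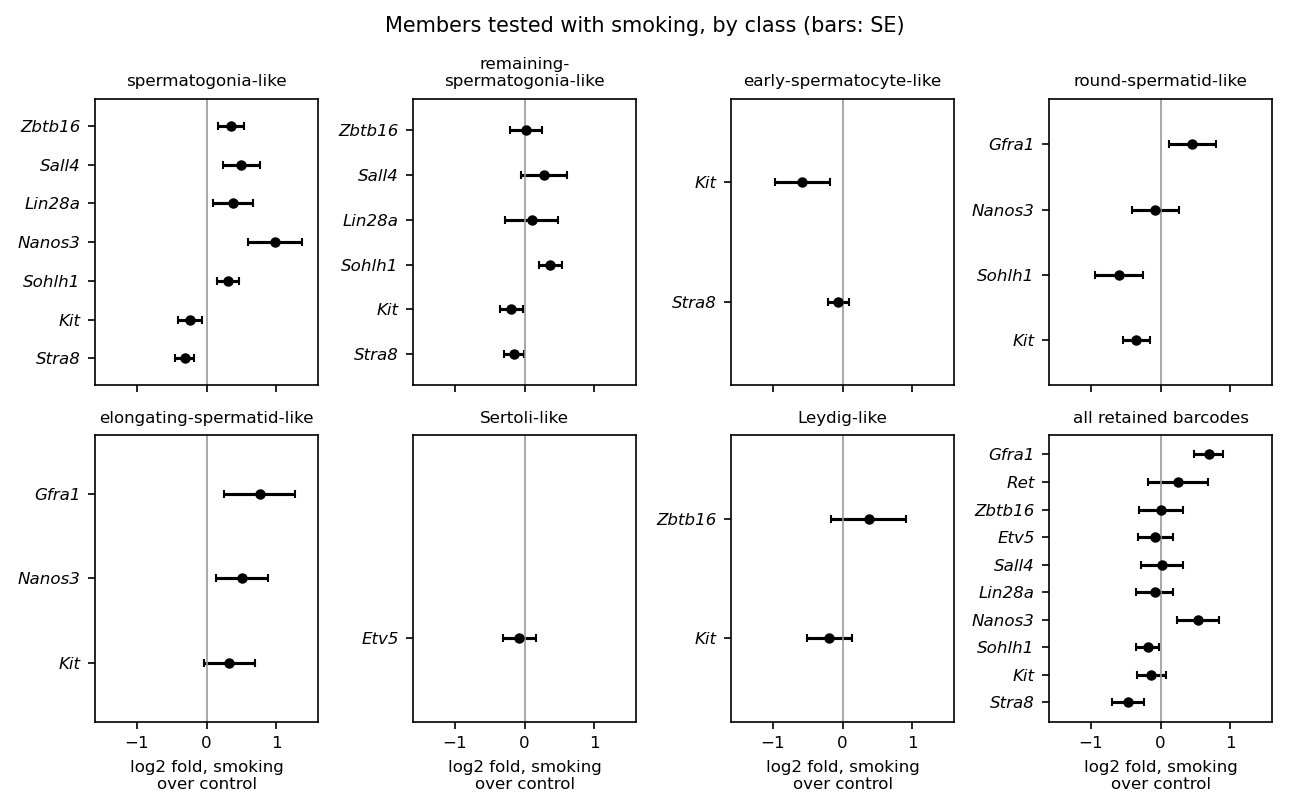
Log2 fold change of smoking over control (horizontal axis, point, with the standard error as a bar) for the genes that passed the low-count filter in each of 8 classes. In spermatogonia-like cells no bar reaches 0, in Sertoli-like and Leydig-like cells every bar does, and in the other panels some do. The bars are no test, and no gene passed an adjusted p of 0.05 in any panel.

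In somatic and late germ cells the tested genes were few. Kit in Leydig-like cells had 93.9, 227 and 141 CPM in the smoking libraries and 210, 188 and 173 CPM in the controls (log2 fold -0.19 ± 0.32 SE, edgeR adjusted p = 0.988). The lowest library, smoking 1, had 97 of its 116 Leydig-like barcodes in the cluster of low UMI number. Within the cluster of high UMI number, a choice made after seeing the data, Kit was at 195, 249 and 162 CPM in the smoking libraries and 241, 240 and 206 CPM in the controls, which overlap (exact two-sided permutation p = 0.4, n = 3 each).

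Zbtb16 in Leydig-like cells averaged 32.2 ± 17.5 CPM in smoking and 28.8 ± 18.4 CPM in control libraries (log2 fold 0.37 ± 0.54 SE), and Etv5 in Sertoli-like cells 16.4 ± 4.04 and 16.8 ± 2.36 CPM (log2 fold -0.08 ± 0.24 SE). Sertoli cell markers in the Leydig-like cells (9 of 12 genes with a UMI, Cldn11, Fshr and Amh at 0) summed to 1635 to 2317 CPM in smoking and 2377 to 2888 CPM in control libraries. In the Sertoli-like cells the 17 early spermatocyte markers summed to 431 to 476 and 484 to 696 CPM, the 8 macrophage markers to 24.0 to 29.4 and 30.4 to 36.9 CPM, and the 5 red blood cell markers to 121 to 327 and 88.3 to 113 CPM. These sums were picked out from all the marker lists as those without overlap in each class, and their part in the folds was not tested. In these classes 0% of 6402 and of 10616 tested genes were called by edgeR, 0 of the 3 gene tests had an unadjusted p under 0.05 (1.45% and 3.25% of all tested genes), and DESeq2 called 0 of them. The log2 folds of Gfra1, Nanos3, Sohlh1 and Kit in round-spermatid-like cells were 0.45 ± 0.34, -0.07 ± 0.34, -0.60 ± 0.34 and -0.35 ± 0.20 SE, none called by edgeR (0% of 13893 tested genes) and none at an unadjusted p under 0.05 (17% of all). In elongating-spermatid-like cells 3 of the 10 were tested, Gfra1, Nanos3 and Kit (log2 folds 0.76 ± 0.51, 0.51 ± 0.37 and 0.33 ± 0.37 SE), with 0 called by edgeR and 0 at an unadjusted p under 0.05, against 0.0734% and 21.1% of 10897 tested genes. For Kit the mean CPM there was 1.35 ± 0.239 in smoking and 1.38 ± 0.608 in control libraries, so its direction differs between CPM and the TMM-scaled fit. DESeq2 gave none of these genes an adjusted p in either spermatid class, so it tells nothing of their calls.

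Over all retained barcodes, the view of a whole-tissue sample, 10 of 10 genes were tested and 0 called, and edgeR called 0% of 18869 tested genes. DESeq2 gave an adjusted p to 1676 of these genes and to none of the 10. In such a sum, fewer cells of a type and less RNA per cell cannot be told apart. Gfra1 had 2.03, 1.70 and 1.44 CPM in the smoking libraries and 1.38, 1.01 and 1.27 CPM in the controls, without overlap, as was so with smoking higher for 3.19% of all tested genes (log2 fold 0.69 ± 0.21 SE, edgeR adjusted p = 0.348). It was the 1 gene of the 10 at an unadjusted p under 0.05 (13.3% of all tested genes). Stra8 averaged 5.94 ± 2.48 CPM in smoking and 9.35 ± 1.84 CPM in control libraries (log2 fold -0.46 ± 0.23 SE, edgeR adjusted p = 0.419).

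Shares of barcodes with a UMI, on barcodes thinned to 2000 UMIs each, were compared for 57 pairs of a gene and a class. No pair passed: the lowest exact permutation p was 0.1, the smallest the design allows, and the lowest adjusted p was 0.95. For Nanos3 in spermatogonia-like cells the share was 3.82 ± 1.63% of thinned barcodes in smoking and 1.66 ± 0.449% in control libraries (SD, n = 3 each, permutation p adjusted over the pairs 0.95), and 14.8 ± 3.26% and 6.53 ± 1.95% without thinning.

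Among 127 genes of 6 pathway lists, Aldh1a3 was the 1 gene that passed in spermatogonia. It encodes a retinaldehyde dehydrogenase, an enzyme that makes retinoic acid (chromosome 7, 66390890 to 66427517, minus strand). In the remaining spermatogonia-like cells it had 13.8, 8.92 and 12.4 CPM in the smoking libraries and 76.5, 48.8 and 41.6 CPM in the controls. All 3 smoking libraries were below all 3 controls, and it fell to 11.7 ± 2.49 CPM in smoking, against 55.6 ± 18.4 CPM in control libraries (log2 fold -2.25 ± 0.33 SE, edgeR adjusted p = 5.04e-05). Of all tested genes there, 0.0633% were called lower and 6.24% lay lower without overlap. DESeq2 made the same call (adjusted p = 0.00722), and it held without any 1 library, with a highest adjusted p of 0.0146 in edgeR without smoking 2.

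The Aldh1a3 difference was seen mainly in the Loxl2-led cells. There Aldh1a3 had 0, 0 and 3 UMIs in 15, 19 and 20 smoking barcodes, against 20, 31 and 22 UMIs in 20, 22 and 21 control barcodes. These UMIs lay in 3 smoking and 15 control barcodes. The sub-stage was picked out from all the sub-stages by these values. Its levels were not tested because a library held under 20 barcodes, and the overlap of the groups over all genes was not computed there. In other sub-stages the groups overlapped. In undifferentiated-like cells it had 10, 3 and 0 UMIs in the smoking libraries and 1, 1 and 2 UMIs in the controls, and in Rbpms2-led cells 9, 11 and 0 UMIs in smoking and 6, 0 and 1 UMIs in control libraries.

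Few barcodes carried these transcripts. In the remaining spermatogonia-like cells 9 of 123 smoking and 22 of 150 control barcodes had an Aldh1a3 UMI, with up to 19 UMIs in 1 barcode, and the share of barcodes with a UMI was 7.73 ± 5.67% in smoking and 14.7 ± 6.45% in control libraries (exact permutation p = 0.3, n = 3 each). Over all spermatogonia-like cells Aldh1a3 fell to 28.3, 10.2 and 9.53 CPM in the smoking libraries, against 62.4, 45.4 and 40.7 CPM in the controls (log2 fold -1.68 ± 0.31 SE, edgeR adjusted p = 0.0185, with 0.0239% of tested genes called lower). That call was lost with DESeq2 (adjusted p = 0.213), without the mitochondrial limit (edgeR adjusted p = 0.0631), without smoking 2 (edgeR adjusted p = 0.461) and without control 1 (edgeR adjusted p = 0.0615).

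**Figure D5:**
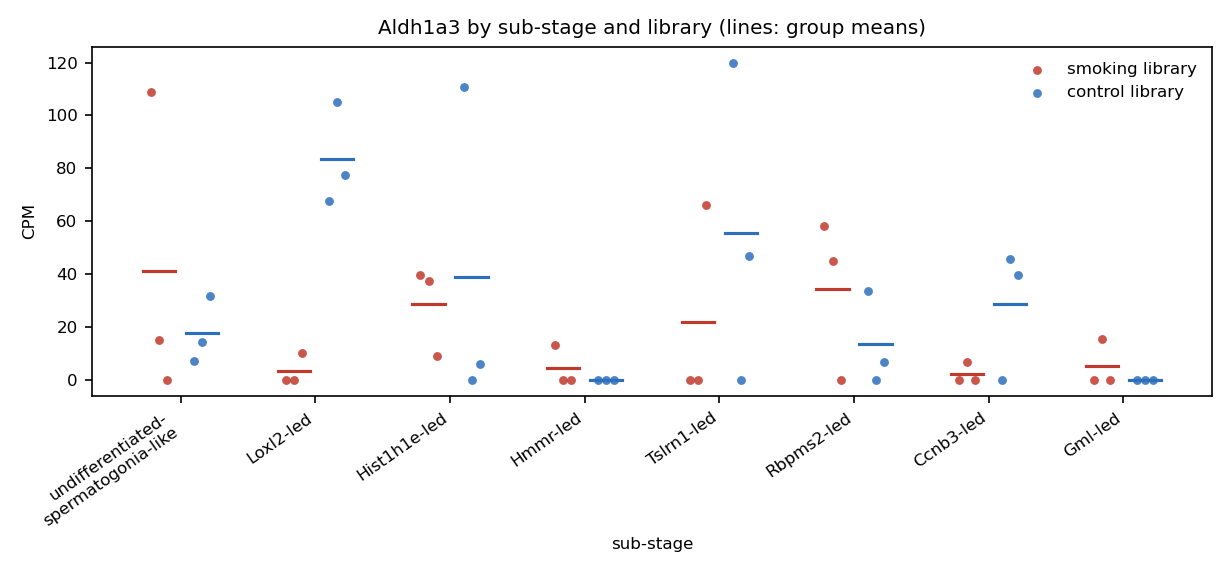
Aldh1a3 level (CPM, vertical axis) by sub-stage, with smoking libraries in red left of control libraries in blue and lines for group means. In Loxl2-led cells the 3 smoking libraries lie at 0, 0 and 10.1 CPM and the 3 controls between 67.6 and 105 CPM, and in the other sub-stages the points of the groups overlap. Levels in single sub-stages were not tested.

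The other genes of the retinoic acid list did not pass in spermatogonia-like cells. Aldh1a2, another retinaldehyde dehydrogenase, was at 35.0 ± 9.91 CPM in smoking and 24.7 ± 8.90 CPM in control libraries (log2 fold 0.56 ± 0.29 SE, edgeR adjusted p = 0.859), and Rdh11 at 26.7 ± 1.83 and 38.6 ± 4.99 CPM (log2 fold -0.50 ± 0.26 SE, adjusted p = 0.866). The receptor Rara was at 22.0 ± 3.0 CPM in smoking and 36.2 ± 7.46 CPM in control libraries (log2 fold -0.65 ± 0.27 SE, edgeR adjusted p = 0.772). In spermatogonia-like cells the retinoic acid list had 5 of 17 genes tested with 0 higher and 1 lower, the receptors 12 of 27 and the stem cell regulators 13 of 29 tested with 0 called, the differentiation regulators 20 of 21 and the meiotic entry genes 16 of 19 tested with 0 called, and the niche ligands 1 of 14 with 0 called. At an unadjusted p under 0.05 there were 0 to 2 genes per list. The lists' median log2 folds lay between -0.06 for the retinoic acid list and 0.13 for the receptors, beside 0.01 over all tested genes, with 0.31 for Nrtn, the single niche ligand tested.

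In the remaining spermatogonia-like cells the retinoic acid list again had 5 of 17 genes tested with 0 higher and 1 lower, and the other 5 lists had 0 called. The receptors Rara and Rarg had log2 folds of -0.84 ± 0.30 and 0.82 ± 0.40 SE there (edgeR adjusted p = 0.846 and 0.925), neither called.

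In other classes 1 list gene passed. Sycp1, a protein of the synaptonemal complex, fell to 5.78 ± 0.857 CPM in elongating-spermatid-like cells of the smoking libraries, against 15.1 ± 3.71 CPM in controls (log2 fold -1.09 ± 0.18 SE, edgeR adjusted p = 0.0324, with 0.0367% of the tested genes called lower). Of the 17 tested genes of the meiotic entry list, it was the 1 called, 9 had an unadjusted p under 0.05, and the median log2 fold was -0.56, beside -0.04 and 21.1% at an unadjusted p under 0.05 over all genes tested in that class. Smoking libraries were lower than controls without overlap for 28.3% of those genes. The call was held with DESeq2 (adjusted p = 0.00132) and was lost in edgeR without smoking 1 (edgeR adjusted p = 0.113), smoking 2 (0.134), control 1 (0.238) or control 2 (0.0618). A cluster of low UMI number (median 2588) held 140, 179 and 296 of the 672, 770 and 1436 smoking barcodes in this class. In the control libraries it held 151, 158 and 192 of 347, 390 and 737 barcodes. The part of this cluster in the folds of the class was not tested.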

How the data were processed

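The deposited files hold whole-number UMI counts per gene and cell barcode. Per the submitters' processing notes, CASAVA 1.8 and Cell Ranger 7.1.0 with mm10 were used, whereas per the file headers the matrices come from Cell Ranger 3.1.0. The labels name a single cell 3′ v2 kit. No source used here states if counting was by strand, so reads of Gfra1, Sall4 and Lin28a cannot be told apart from their antisense neighbours.

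Barcodes over 20% mitochondrial UMIs were dropped, and doublets were called from simulated barcode pairs at 0.8% per 1000 barcodes (3935 calls, 2459 barcodes over the limit). Clustering used 2000 variable genes without the 10 members, 30 principal components, 20 neighbours and Leiden resolution 1. The spermatogonial cluster was split at 1.5 (20 components) and its spermatogonia at 1 (10 components, 1000 genes). A marker counted at a log2 fold of 1 in 20% of barcodes, or 0.5 within the split cluster, and a name needed 3 markers; the stage order was chosen after seeing the data.

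UMIs were summed per library and class with at least 20 barcodes in every library and tested, 3 smoking against 3 control libraries, with edgeR 4.0.16 (quasi-likelihood, TMM, limma 3.58.1, R 4.3.3); DESeq2 1.42.0 was an alternative. Single values were compared by exact two-sided permutation over 20 assignments. Floors are 3 counts over a class and cover counting error only. Python 3.11.15, numpy 2.4.6, scipy 1.17.1, scikit-learn 1.9.0, leidenalg 0.10.2 and igraph 0.11.9 were used, and the fit was tested on simulated data. All 10 genes are named, with list genes that passed or had a low p. The genes, the 6 lists and the rule were chosen with earlier results of these data known.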

Additional observations from a re-analysis of the deposited data

How the results depend on the processing

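Of 442 settings of the gene folds, 403 kept direction and side of the threshold, 31 reversed, 24 of them with 1 library left out, 8 fell below the threshold and 0 rose above it; the 20 settings of the level ratios between sub-stages all kept theirs. Of the 403, 386 had an adjusted p; in the other 17, DESeq2 gave none (all 10 genes over all retained barcodes and the 7 fits in the spermatid classes), so that only the direction was compared. None of the 10 genes was called under a setting that gave it an adjusted p. The number of genes called by edgeR was 7 in spermatogonia-like, 7 in remaining spermatogonia-like, 5 in early-spermatocyte-like, 0 in spermatocyte-like, 0 in round-spermatid-like, 8 in elongating-spermatid-like, 0 in Sertoli-like, 0 in Leydig-like, 6 in macrophage-like, 1 in mesenchymal-like, 0 in all retained barcodes. With DESeq2 it was 1 in spermatogonia-like, 1 in remaining spermatogonia-like, 0 in early-spermatocyte-like, 12 in spermatocyte-like, 121 in round-spermatid-like, 98 in elongating-spermatid-like, 1 in Sertoli-like, 1 in Leydig-like, 0 in macrophage-like, 0 in mesenchymal-like, 388 in all retained barcodes. With no filter on low counts it was 36 in spermatogonia-like, 22 in remaining spermatogonia-like, 13 in early-spermatocyte-like, 472 in spermatocyte-like, 574 in round-spermatid-like, 339 in elongating-spermatid-like, 45 in Sertoli-like, 7 in Leydig-like, 33 in macrophage-like, 22 in mesenchymal-like, 1 in all retained barcodes. With doublet calls kept it was 4 in spermatogonia-like, 2 in spermatocyte-like, 5 in round-spermatid-like, 7 in Sertoli-like, 0 in macrophage-like, 0 in mesenchymal-like. Without the mitochondrial limit it was 3 in early-spermatocyte-like. At Leiden resolution 2 it was 3 in early-spermatocyte-like, 1 in spermatocyte-like, 1 in Sertoli-like, 2 in mesenchymal-like. With RLE size factors it was 1 in spermatocyte-like. Leaving out 1 library gave 3 to 13 in spermatogonia-like, 2 to 10 in remaining spermatogonia-like, 0 to 9 in early-spermatocyte-like, 0 to 1227 in spermatocyte-like, 0 to 11 in round-spermatid-like, 1 to 2395 in elongating-spermatid-like, 0 to 6 in Sertoli-like, 0 to 8 in Leydig-like, 3 to 16 in macrophage-like, 0 to 21 in mesenchymal-like, 0 to 7 in all retained barcodes. The sign of these log2 folds reversed, and the cause was not tested: Stra8 in early-spermatocyte-like 0.0918 (doublet calls kept), Etv5 in Sertoli-like 0.0310 (Leiden resolution 2), Ret in all retained barcodes -0.0154 (doublet calls kept), Zbtb16 in all retained barcodes -0.11 (doublet calls kept), Zbtb16 in all retained barcodes -0.0373 (no mitochondrial limit), Sall4 in all retained barcodes -0.21 (doublet calls kept), Sall4 in all retained barcodes -0.0498 (no mitochondrial limit). With 1 library left out, folds that changed sign had the ranges Zbtb16 in remaining spermatogonia-like -0.17 to 0.15, Lin28a in remaining spermatogonia-like -0.29 to 0.44, Stra8 in remaining spermatogonia-like -0.30 to 0.0781, Stra8 in early-spermatocyte-like -0.22 to 0.11, Nanos3 in round-spermatid-like -0.47 to 0.18, Kit in elongating-spermatid-like -0.0186 to 0.64, Etv5 in Sertoli-like -0.20 to 0.14, Zbtb16 in Leydig-like -0.25 to 0.98, Kit in Leydig-like -0.64 to 0.0732, Ret in all retained barcodes -0.21 to 0.62, Zbtb16 in all retained barcodes -0.31 to 0.33, Etv5 in all retained barcodes -0.30 to 0.11, Sall4 in all retained barcodes -0.19 to 0.20, Lin28a in all retained barcodes -0.25 to 0.10, Kit in all retained barcodes -0.41 to 0.0542.

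The share of undifferentiated-like barcodes differed by 6.04 percentage points, by 2.69 with doublet calls kept and by 4.5 to 8.81 with 1 library left out. No paired analysis was possible because the numbers 1 to 3 were given in accession order within each group and no label ties a smoking to a control library by batch, litter or day. Tests in undifferentiated-like, endothelial-like and peritubular-myoid-like cells, and the test of a difference between undifferentiated-like and remaining cells, were not run because a library held under 20 barcodes. In spermatogonia-like cells Gfra1, Ret and Etv5 had 30, 52 and 10 UMIs, which limits what a comparison can show.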
